A study of Mus musculus with 6 samples.

Results

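The genes described here are 39 mouse genes that encode aminoacyl-tRNA synthetases or the scaffold proteins that hold some of them together, of 21883 protein-coding genes on chromosomes 1 to 19, X and Y. They were chosen by symbol. The set holds 20 synthetases of the cytosol, 16 of mitochondria, whose symbols end in 2, and 3 scaffold genes, Aimp1, Aimp2 and Eef1e1. Aimp2 was kept with the scaffold genes although its symbol ends in 2. All were found in the RefSeq gene table, 38 under their own symbol and the cytosolic methionyl-tRNA synthetase gene as Mars1.

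c-Myc was mapped by chromatin immunoprecipitation and sequencing (ChIP-seq) in 3 lines of mouse lung cancer cells named PB115, PB119, PB120. Where 3 values follow each other below, they are in that order. Each line gave 1 ChIP library, made with a c-MYC antibody, and 1 input library of sonicated chromatin, which makes 6 samples. No genotype, strain or treatment of the lines is given in the sources used here, so the groups differ by line name alone. With 1 library per line there was no replicate error, no difference between lines could be tested, and all values below describe these libraries. The ChIP libraries held between 32299364 and 40726886 tags, and the authors' peak lists held 7830, 13527 and 5168 peaks. A value called fold below is the authors' fold enrichment of ChIP fragments over local input background at a peak's summit. It ranks peaks within a list, and since the lists differ in depth and background, an order of folds between lines describes these libraries only. The weakest listed summits held 24, 19 and 21 fragments, so a gene without a listed peak was below the authors' cutoff, which does not show that c-Myc was absent.

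Aminoacyl-tRNA synthetases join each amino acid to its transfer RNA, the step that fixes the genetic code before translation begins. Cytosol and mitochondria use separate enzymes for most amino acids, all encoded in the nucleus, and the Gars and Kars genes serve both compartments. In the cytosol several synthetases are bound into a multisynthetase complex by the proteins of Aimp1, Aimp2 and Eef1e1. c-Myc binds DNA with its partner Max, preferably at the E-box hexamer CACGTG, and genes of protein synthesis are among its best known targets.

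Most of the 39 genes had a c-Myc peak. A summit lay within 1000 bp of an annotated gene end at 31 (PB115), 34 (PB119) and 22 (PB120) of them, where the shares over all protein-coding genes were 23.6%, 35.3% and 16.4%. All 3 lines had such a summit at 21 of the 39 genes, or 53.8% (exact Clopper-Pearson 95% interval 37.2 to 69.9, counting error only), against 14.4% of all protein-coding genes. The interval treats the genes as independent draws, although the list is fixed and Hars and Hars2 share a summit, and it is no test against that share. With summits anywhere in the gene body counted as well, the numbers were 34, 38 and 25 genes, and 23 in all 3 lines, against 28.8%, 42.2%, 20.1% and 17.5% of all protein-coding genes. With genes left out whose summit was also within 1000 bp of an end of another coding gene, the end counts were 16, 18 and 12, and 11 in all 3 lines, against 15.7%, 24.4%, 10.8% and 9.15% of all protein-coding genes. Cars, the cytosolic cysteinyl-tRNA synthetase gene, was the single member with no summit in any line by either count. The list was drawn up with results of these data known and gets no test. Expression was not analysed here, so silent genes could not be set aside from the comparison.

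Both classes of synthetase genes were bound in every line. Of the 20 cytosolic genes, 17, 18 and 12 had a summit near an end. The 16 mitochondrial genes gave 12, 13 and 8. Summits near an end in every line were found at 11 of 20 cytosolic genes (exact 95% interval of the percentage 31.5 to 76.9) and 8 of 16 mitochondrial genes (24.7 to 75.3). These intervals also treat the genes of a fixed list as independent draws. The difference between the classes was not tested. Without summits near another coding gene, the counts were 10, 11 and 8 cytosolic genes, with 7 in all lines, and 5, 6 and 3 mitochondrial genes, with 3 in all lines. At a p cutoff of 1e-20, PB120 kept 10 cytosolic and 4 mitochondrial genes. With the gene body counted, the numbers were 18, 19 and 13 cytosolic genes and 14, 16 and 10 mitochondrial genes. All 16 mitochondrial synthetase genes thus had a c-Myc summit in PB119. The 8 cytosolic synthetases of the multisynthetase complex gave 6, 7 and 5 genes near an end, and the other 12 cytosolic synthetases gave 11, 11 and 7.

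**Figure D1:**
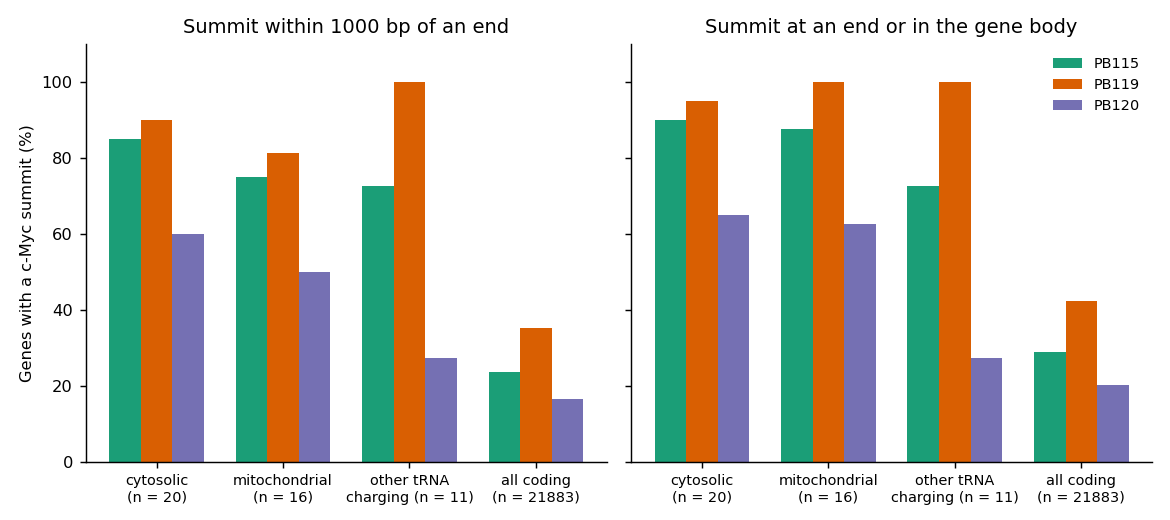
Share of genes with a c-Myc summit (y axis, percent) in PB115, PB119 and PB120 for 20 cytosolic synthetases, 16 mitochondrial synthetases, 11 other genes of tRNA charging and all 21883 protein-coding genes. The left panel counts summits within 1000 bp of a gene end and the right panel also those in the gene body; the cytosolic and mitochondrial bars stand above the bars of all coding genes in every line.

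Enrichment at the bound members ranked in the upper part of the lists in PB115 and PB119. The median fold over the members with a summit near an end was 13.5, 15.1 and 9.50, beside medians of 10.4, 11.6 and 9.23 over all bound protein-coding genes. For cytosolic genes the medians were 13.5, 15.1 and 9.66, and for mitochondrial genes 13.6, 14.6 and 8.49. The classes therefore lay close together in PB115 and PB119, and in PB120 the mitochondrial median was below that of all bound genes. With gene bodies counted it was above, at 9.47 against 9.27, and at listed starts likewise, at 9.78 against 9.32. In PB115, 25 of the 31 bound members lay above the median fold of the list's peaks, in PB119 29 of 34, and in PB120 13 of 22. Over all bound protein-coding genes these were 3005 of 5172, 4978 of 7723 and 1971 of 3598. Members in the top 10% of peaks numbered 9, 12 and 3, beside 673, 1208 and 415 of those genes. In PB120 both shares of the members were near those of all bound genes. Peaks at the members were also wider than the median of all bound genes, with medians of 435, 529 and 296.5 bp against 309, 378 and 260 bp.

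**Figure D2:**
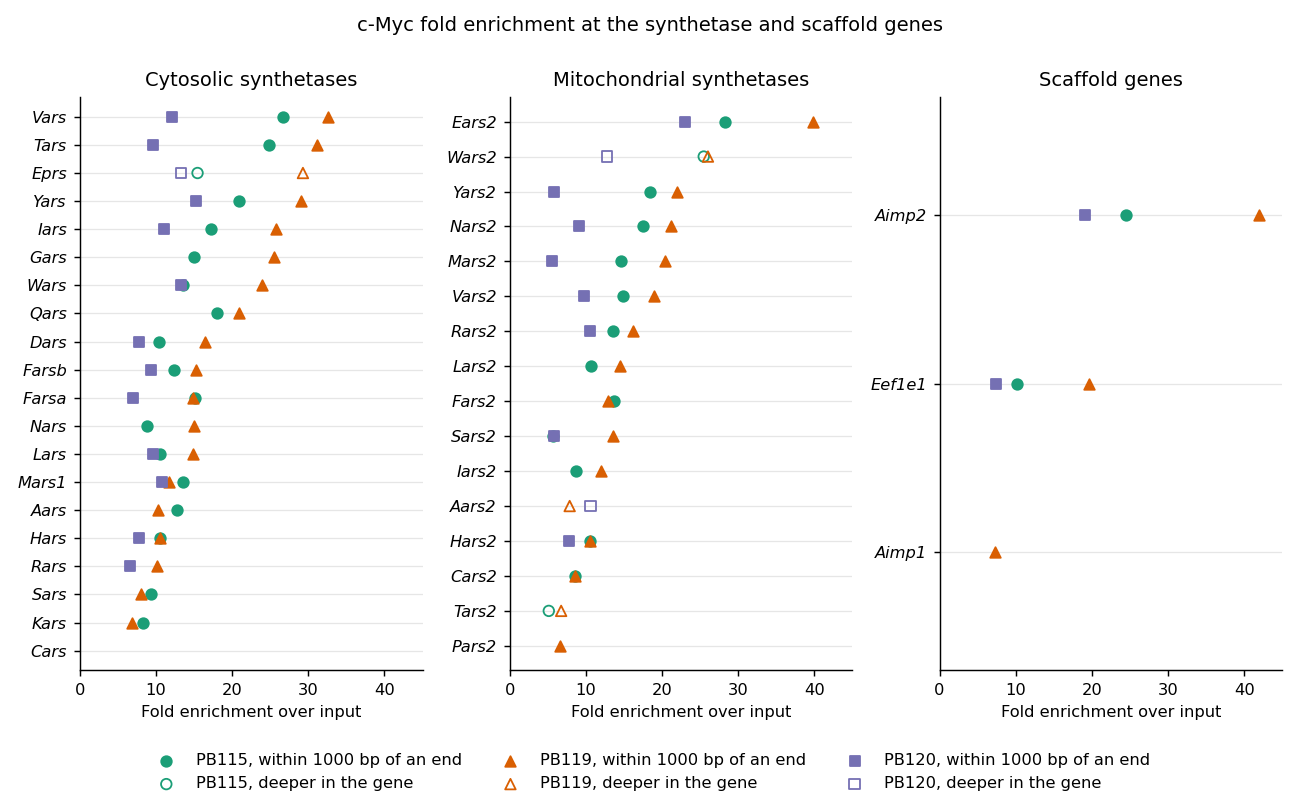
The authors' fold enrichment over input (x axis) at each synthetase and scaffold gene in PB115, PB119 and PB120. Filled symbols are summits within 1000 bp of a gene end, open symbols are genes with a summit only deeper in the annotated gene, and a missing symbol means no listed peak; Aimp2 reached 41.9 and Ears2 39.9 in PB119, and Cars has no symbol.

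Among the cytosolic synthetases bound near an end in all lines, Yars, Vars, Wars, Iars and Tars had the highest mean rank over the lists. Yars, which charges tyrosine, had folds of 20.9, 29.1 and 15.3, on 111, 130 and 71 ChIP fragments at the summit. Its PB119 peak spanned chr4:129189591-129190306 in mm10, with summits at 36, 21 and -41 bp from the annotated start. It stayed above the 90th percentile of each list, at 95.4, 97.6 and 92.0, unlike the other cytosolic members. Vars, which charges valine, had 26.7, 32.6 and 12.2 on 123, 138 and 74 fragments, the highest cytosolic folds of PB115 and PB119. Its peak, chr17:35000704-35001771 in PB119, was 1068 bp wide and had its summit 457 bp inside the gene. In every line the Vars summit was also within 1000 bp of an end of the gene D17H6S56E-5. Wars, for tryptophan, had 13.5, 24.0 and 13.3 on 80, 103 and 50 fragments, at chr12:108894074-108894606 in PB119, with the summit 75 bp outside the gene.

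Iars and Tars charge isoleucine and threonine. Iars had folds of 17.3, 25.8 and 11.1, on 95, 115 and 43 fragments, with summits at 17, 23 and -32 bp from its start and a PB119 peak at chr13:49681947-49682461. For Tars the folds were 24.9, 31.2 and 9.65, on summits of 105, 122 and 35 fragments at 13, 13 and -29 bp from the start within chr15:11399374-11399883 in PB119. The exact Poisson 95% intervals of the Tars fragments were 85.9 to 127, 101 to 146 and 24.4 to 48.7. Tars thus sat at the 98.0th and 98.3rd percentiles of fold in PB115 and PB119 and at the 60.0th in PB120.

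Eprs, the gene of the glutamyl-prolyl-tRNA synthetase a member of the complex, was not counted near an end because its summits lay 1568 to 1652 bp from the nearest end in the gene table. At that start it had folds of 15.5, 29.3 and 13.3, with summits at -43, 25 and -59 bp, at the 86.6th, 97.7th and 86.3rd percentile. The remaining cytosolic members found in every line had a lower mean rank than the 5 leading ones. Farsa and Farsb, the subunits of the phenylalanyl-tRNA synthetase, had 15.1, 14.8 and 6.97, and 12.4, 15.3 and 9.36. Dars, for aspartate, had 10.4, 16.4 and 7.75, and Lars, for leucine, 10.6, 14.9 and 9.68. Mars1, for methionine, had 13.5, 11.7 and 10.8, and its strongest PB115 peak lay 568 bp inside the gene, apart from the peaks of the other lines at 61 and 35 bp.

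Ears2, the mitochondrial glutamyl-tRNA synthetase gene, led the mitochondrial class in each line. Its folds were 28.3, 39.9 and 23.0, on 160, 170 and 99 fragments, with exact Poisson intervals of 136 to 187, 145 to 198 and 80.5 to 120.5. These placed it at the 98.8th, 99.6th and 99.0th percentile of its list. The PB119 peak, chr7:122066658-122067737, was 1080 bp wide with its summit at 69 bp from the start. Nars2, for asparagine, came next among mitochondrial genes bound near an end in all lines, with folds of 17.5, 21.2 and 9.16 on 81, 80 and 44 fragments, at chr7:96951387-96951994. Vars2, for valine, had 14.9, 18.9 and 9.78 on 63, 80 and 35 fragments at chr17:35667243-35667706, and its summits lay within 7 bp of each other. Rars2, for arginine, had 13.6, 16.2 and 10.6 on 66, 69 and 39 fragments at chr4:34614785-34615102, with summits at -1, 6 and -5 bp from the start.

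Yars2 and Mars2, the mitochondrial tyrosyl- and methionyl-tRNA synthetase genes, ranked high in PB115 and PB119 and near the bottom in PB120. Yars2 had folds of 18.4, 21.9 and 5.87 on 89, 93 and 35 fragments, at the 92.5th, 92.8th and 6.79th percentile, with its PB119 peak at chr16:16302754-16303696. Mars2 had 14.7, 20.3 and 5.54, at the 84.5th, 90.8th and 4.84th percentile. The input background at both PB120 summits was 2.77 times the genome-wide level, against 1.51 to 1.58 in the other lines, and its part in the low PB120 folds was not tested. No interval was computed for the background at single summits, so counting error in the input was not separated from a difference between lines. The same PB120 background was found at Vars, Eprs, Sars2 and Rars, with folds of 12.2, 13.3, 5.87 and 6.68. Sars2, for serine, was high in PB119 alone, with 5.67, 13.6 and 5.87. Wars2, for tryptophan, was bound 308 bp downstream of its listed start in PB115 and PB119 and 306 bp in PB120. Its folds of 25.5, 26.0 and 12.8 were second in the class, after Ears2, in every line, but the table's outer end put it beyond the 1000 bp window.

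The scaffold genes differed among themselves. Aimp2 had folds of 24.5, 41.9 and 19.1, the highest of all members in PB119, on 132, 173 and 75 fragments. Its summits lay 237, 241 and 236 bp downstream of the start, a range of 5 bp, the smallest among the 21 members bound near an end in all lines. Eef1e1, also known as Aimp3, had 10.2, 19.6 and 7.38. Aimp1 had a peak in PB119 only, with a fold of 7.29 on 38 fragments.

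Where a member was bound near an end in all 3 lines, its peaks mostly overlapped, as at other genes. The strongest peaks overlapped by at least 1 bp in all lines at 20 of the 21 members, with Mars1 as the exception, and at 90.5% of the 3152 protein-coding genes bound in all lines. An overlap of at least 50% of both peaks was found at 11 of the 21 and at 47.0% of these genes. The summits lay within 100 bp of each other at 17 members and 69.3% of the genes, and within 50 bp at 10 members and 46.5% of the genes. PB119 had the higher fold than PB115 at 17 of the 21 (81.0%, against 89.1% of those genes). PB120 had the lowest value against PB119 at 21 of 21 (100% against 91.3%) and against PB115 at 20 of 21 (95.2% against 72.3%). Across the 21 members, Spearman's rho of fold was 0.80 between PB115 and PB119, 0.54 between PB115 and PB120 and 0.55 between PB119 and PB120. Over the 3152 genes it was 0.76, 0.39 and 0.40, and these values describe genes of single libraries, which share antibody and peak caller.

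Members missing near an end in at least 1 line numbered 18, and 10 of them lacked a peak near an end in PB120 alone. The share of all protein-coding genes with that pattern was not computed. Of the 7723 protein-coding genes with a PB119 summit near an end, 4210 had none in PB120, beside 12 of 34 members. A missing PB120 call was thus not particular to the members. Bound in PB115 and PB119 only were Aars, Gars, Kars, Nars, Qars and Sars of the cytosol and Cars2, Fars2, Iars2 and Lars2 of mitochondria. Gars, the glycyl-tRNA synthetase gene, stood apart, with folds of 15.1 in PB115 and 25.6 in PB119, on 73 and 123 fragments, at summits 31 and 3 bp from its start. No summit was listed for it in PB120, at an end or in the body. Of the 490 protein-coding genes with a PB119 fold as high as that of Gars or higher, 29 (5.92%) had no PB120 summit near an end. The 12 members bound in PB119 and not in PB120 had a median PB119 fold of 11.1, and the 22 bound in both had 19.2, beside 9.62 and 15.5 over all protein-coding genes.

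Qars, described below with its neighbour, had 18.0 and 20.9, and the others of this group had lower folds than Gars. Nars, for asparagine, had folds of 8.84 and 14.96 in PB115 and PB119, and Lars2, for leucine, 10.6 and 14.6. Fars2, for phenylalanine, had 13.7 and 12.9 at a summit 58 and 49 bp outside the gene, and Iars2, for isoleucine, 8.66 and 12.0. Sars, Kars and Cars2, for serine, lysine and cysteine, had folds between 6.94 and 9.40 in those lines.

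A pattern without PB115 was found at 2 members. Rars, the cytosolic arginyl-tRNA synthetase gene, had folds of 10.2 in PB119 and 6.68 in PB120, at summits 36 and 35 bp outside the gene. Aars2, the mitochondrial alanyl-tRNA synthetase gene, had 7.89 and 10.6 at summits -1 and -23 bp from its start, deeper in the annotated gene than the end window. Pars2, for proline, was bound in PB119 alone with a fold of 6.61 on 25 fragments. Tars2, for threonine, had 5.15 in PB115 and 6.77 in PB119, at 49 and 107 bp from its start, over an input background of 3.73 and 3.53 times the genome-wide level.

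Some end calls came from summits beside an end of another gene. At Qars, the glutaminyl-tRNA synthetase gene, the summits lay 866 bp in PB115 and 860 bp in PB119 beyond the gene's far end, within 1000 bp of an end of Qrich1, with folds of 18.0 and 20.9. In PB120 that summit was 1090 bp away and so just outside the window, with a fold of 14.5. No summit lay within 1000 bp of the listed start of Qars in any line. At Aars, the alanyl-tRNA synthetase gene, the end call came from a summit 712 and 725 bp outside the gene beside Exosc6, an RNA exosome gene, with folds of 12.8 and 10.3. The start of Aars itself had weaker summits, with folds of 4.61 at -108 bp in PB115 and 7.48 at -78 bp in PB119. Near Kars, a summit close to Adat1, a tRNA-editing deaminase gene, fell between 1151 and 1185 bp outside the gene and was not counted, with folds of 16.0, 16.9 and 5.42.

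Many bound members shared their summit with a neighbour. Of the bound members, 48.4%, 47.1% and 45.5% had a strongest summit that was also within 1000 bp of an end of another protein-coding gene, where all bound genes gave 33.6%, 30.8% and 34.2%. In the mitochondrial class it was 7 of 12, 7 of 13 and 5 of 8 genes, and in the cytosolic class 7 of 17, 7 of 18 and 4 of 12. Hars and Hars2, the cytosolic and mitochondrial histidyl-tRNA synthetase genes, overlap at their ends on chromosome 18 and shared a summit. It lay 73, 116 and 50 bp inside Hars, with folds of 10.6, 10.6 and 7.82. Sars2 shared its summit with Mrps12, a mitochondrial ribosomal protein gene, Rars2 with Orc3, an origin recognition gene, and Vars2 with Gtf2h4, a gene of transcription factor TFIIH. Ears2 shared with Ubfd1, Aimp2 with the mismatch repair gene Pms2, Yars with S100pbp, Wars with Wdr25 and Vars with D17H6S56E-5. In PB115 and PB119, Kars shared with Terf2ip, Fars2 with Lyrm4 and Iars2 with Bpnt1, and in PB119 Aimp1 shared with Tbck. A summit at such a place cannot be given to one gene of the pair.

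Among members with a summit within 1000 bp of an annotated start, most had it within 100 bp. RefSeq promoter windows gave a start for 30 of the members, 13 cytosolic, 14 mitochondrial and 3 scaffold genes. A summit lay within 1000 bp of a start at 27, 29 and 19 of the 30, and at 18 in all lines, beside 25.8%, 38.0%, 17.6% and 15.6% of the 17491 protein-coding genes with a listed start. The median signed position was 44, 42 and 16 bp, where positive values are downstream. Within 100 bp of the start were 16, 19 and 16 members. In PB115 and PB119, 23 of 27 and 25 of 29 summits lay at or downstream of the start, and in PB120 10 of 19. Positions from the start were not computed for other protein-coding genes, so they are not shown to be particular to the members. No start was listed for Cars, Hars, Lars, Nars, Rars, Vars, Wars, Hars2 and Pars2.

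**Figure D3:**
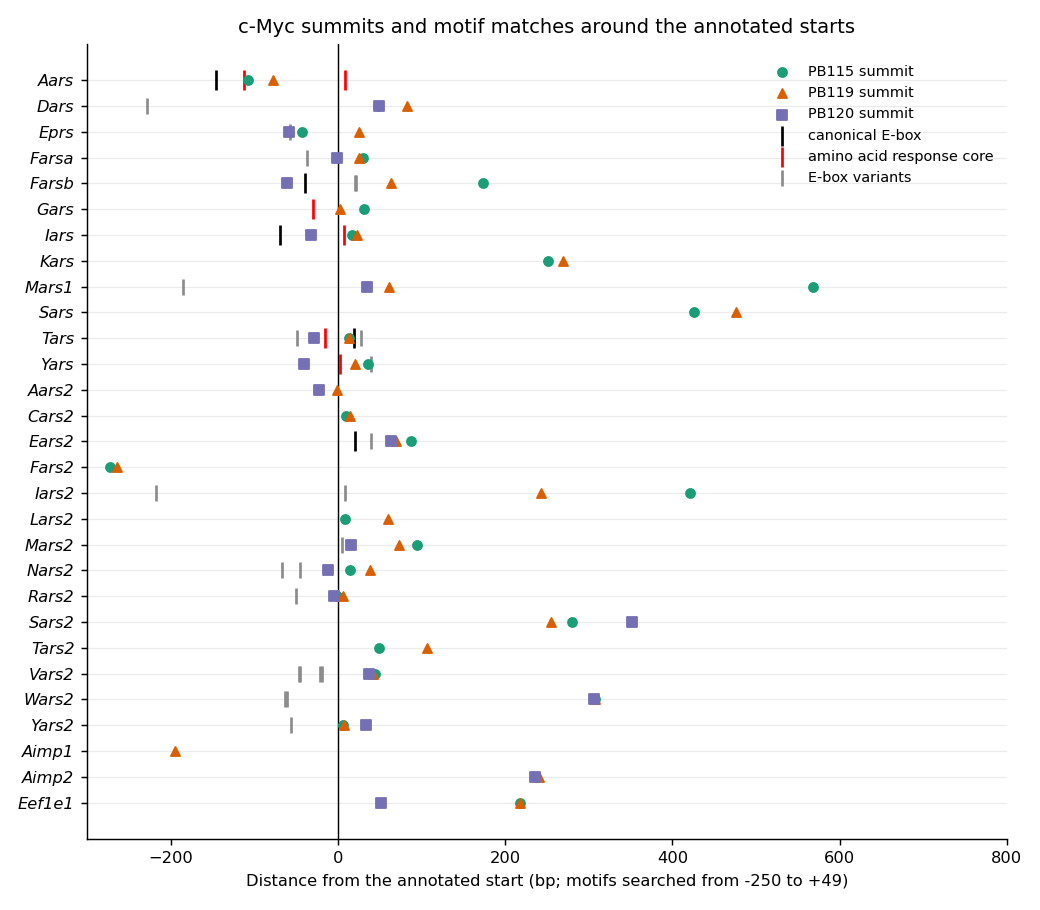
Distance of the strongest c-Myc summit from the annotated start (x axis, bp, positive downstream) for the 29 members with a summit within 1000 bp of a listed start. Coloured symbols are summits of PB115, PB119 and PB120 and upright ticks are motif matches between -250 and +49 bp; at Wars2, Vars2 and Aimp2 the symbols of the lines lie almost on top of each other.

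Canonical E-boxes were found in few of the promoters. The windows, from 250 bases before a start to 50 bases from it on, were searched on both strands, and a gene was counted once over its windows. CACGTG was present at 5 of 30 members (16.7%), beside 8.91% of the 17491 genes, 14.3% of the genes with a PB119 summit near a start and 19.6% of those with such a summit in all lines. The members were Aars, Farsb, Iars and Tars of the cytosol and Ears2 of mitochondria. The variant CACGCG was found at 7 members, the variant CACGAG at 3, the variant CATGCG at 6 and the variant CATGTG at 3. Over all genes the shares were 13.7%, 8.25%, 8.47% and 13.2%, so that 3 of 30 members is near or below the share of all genes. Among genes with a PB119 summit near a start they were 26.2%, 11.7%, 13.4% and 9.45%. The 7 of 30 members with CACGCG (23.3%) were thus below the share of these bound genes. Any of these forms or CACGTG was present at 17 of 30 (56.7%), beside 40.7% of all genes and 54.7% of those with a PB119 summit. Among genes with a summit near a start in all lines it was 64.5%. Yars, ranked first in the cytosolic class, had no CACGTG, and Vars and Wars had no listed start to search. Nars2, Vars2, Rars2 and Yars2, leading mitochondrial genes after Ears2, had none. The 30-base stretches around the canonical E-boxes are shown because 3 of these genes, Iars, Tars and Ears2, are among the 5 leading genes of their classes. Each is written 5′ to 3′ on the gene's strand (GRCm38, from RefSeq), with the E-box in capitals.
Aars, chr8:111033684-111033713, plus strand: agtcaaccctgtCACGTGacactccatgtc
Farsb, chr1:78488919-78488948, minus strand: ttagacaggcatCACGTGagacagcccaag
Iars, chr13:49682049-49682078, plus strand: gaccaatcgccaCACGTGttgtttgtaggt
Tars, chr15:11399622-11399651, minus strand: tccgcctgtggcCACGTGgcgcacgcgcag
Ears2, chr7:122067048-122067077, minus strand: cgcgaaggagccCACGTGtgtgtttctagt
The first base of the hexamer lay at -146 in Aars, -39 in Farsb, -69 in Iars, 19 in Tars and 21 in Ears2, counting the start as 0. The Tars summits of PB115 and PB119, at 13 bp, were 6 bp from that base, and the Ears2 summits were 42 to 66 bp downstream of it. A match to these letters is a description and does not mark a site of contact.

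Most members with the variant CATGCG were mitochondrial. It was present at 5 of 14 mitochondrial genes with a listed start, Nars2, Rars2, Vars2, Wars2 and Yars2, and at 1 of 13 cytosolic genes, Farsb. The shares were 8.47% of all genes, 13.4% of those with a PB119 summit near a start and 17.1% of those with one in all lines. In Vars2 and Wars2 the hexamer overlaps its own reverse complement in the stretch CGCATGCG, which holds 2 overlapping matches at 1 place. These stretches, with the motif in capitals, are shown because all of them lie upstream of starts bound in all 3 lines.
Nars2, chr7:96951470-96951499, plus strand: cggacacaatcaCGCATGctcagactccac
Rars2, chr4:34614895-34614924, plus strand: cggccccgtgtgCATGCGcactccacactt
Vars2, chr17:35667621-35667650, minus strand: agagtcttttaCGCATGCGcctgcgtgtcc
Vars2, chr17:35667595-35667624, minus strand: gtccccgcccaCGCATGCGcgcgcacctcg
Wars2, chr3:99141016-99141045, plus strand: cagaggacaggCGCATGCGtagtaagcaca
Yars2, chr16:16302897-16302926, plus strand: gctacgcccgagCATGCGtagagagacacc
Their first bases lay between -63 and -19, within 100 bp of the c-Myc summits at Nars2, Rars2, Vars2 and Yars2, while the Wars2 summits lay at 306 to 308 bp.

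A different motif was seen in the cytosolic class. The core TGATGNAA of the amino acid response element, through which ATF4 with C/EBP proteins raises transcription when amino acids run short, was present at 5 of 13 cytosolic members, Aars, Gars, Iars, Tars and Yars, and at 0 of 14 mitochondrial and 0 of 3 scaffold members. It was found in 4.13% of all 17491 genes and in 2.32% of those with a PB119 summit near a start. Of these 5 genes, Gars, Iars, Tars and Yars had PB119 folds between 25.6 and 31.2, and Aars had 7.48 at its start. Eprs had 29.3 at its start without the core, and Vars and Wars had no listed start to search. The other cytosolic members searched had no core and PB119 start folds between 6.94 and 16.4, or, at Qars, no start summit. The stretches that follow are shown because Iars, Tars and Yars are among the leading cytosolic genes and carry core and c-Myc summit together at the start; Gars had no PB120 summit, and the start summits of Aars were weak. The core stands in capitals, as itself in Yars and as its reverse complement in the others.
Aars, chr8:111033840-111033869, plus strand: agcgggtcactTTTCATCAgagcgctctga
Gars, chr6:55037960-55037989, plus strand: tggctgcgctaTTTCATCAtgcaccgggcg
Iars, chr13:49682126-49682155, plus strand: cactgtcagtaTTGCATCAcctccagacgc
Tars, chr15:11399655-11399684, minus strand: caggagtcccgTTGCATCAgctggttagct
Yars, chr4:129189895-129189924, plus strand: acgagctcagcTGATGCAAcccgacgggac
The first base of the core lay at -30 in Gars, 7 in Iars, -15 in Tars and 3 in Yars, and the PB119 summits lay at 3, 23, 13 and 21 bp. In Aars the core shown lay at 9. A further Aars match, not shown, lay at -112, where the start summits were at -108 bp in PB115 and -78 bp in PB119.

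For longer context, the 250 bases before the start of Iars and of Vars2 are given, one bound gene of each class with its motifs upstream of the start.
Iars, chr13:49681880-49682129, plus strand, CACGTG in capitals: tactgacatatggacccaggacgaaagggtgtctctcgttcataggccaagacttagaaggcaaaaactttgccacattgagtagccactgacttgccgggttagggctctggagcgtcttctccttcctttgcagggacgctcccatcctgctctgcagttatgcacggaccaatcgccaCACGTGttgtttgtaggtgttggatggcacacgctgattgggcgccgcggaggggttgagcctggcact
Vars2, chr17:35667593-35667842, minus strand, CATGCG on either strand in capitals: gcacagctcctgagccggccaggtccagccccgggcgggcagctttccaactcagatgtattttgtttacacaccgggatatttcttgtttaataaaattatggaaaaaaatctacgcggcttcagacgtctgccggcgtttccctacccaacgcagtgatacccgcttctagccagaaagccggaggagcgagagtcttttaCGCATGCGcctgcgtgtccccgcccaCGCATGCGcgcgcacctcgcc
Promoter composition was similar in both classes. The median ratio of observed to expected CpG was 0.712 in 13 cytosolic and 0.770 in 14 mitochondrial promoters, above the 0.576 of all 17491 genes and below the 0.830 of genes with a PB119 summit near a start. Median GC content was 56.0% and 58.2%, beside 56.3% and 62.7%. The share of members bound was not compared with that of other promoters of equal composition.

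Input background differed between lines at some members. On chromosome 8, which holds Aars, Farsa, Kars and Cars2, the median background over all peaks was 2.62 times the genome-wide level in PB120 against 1.79 on the other chromosomes, where PB115 had 1.87 against 1.57 and PB119 1.76 against 1.51. Farsa had folds of 15.1, 14.8 and 6.97 on 86, 91 and 59 fragments, and its background was 1.90, 2.42 and 4.16 on the same scale, without an interval. It was the single chromosome 8 member with a PB120 peak near an end, since Aars, Kars and Cars2 had none. The part of this background in their PB120 values was not tested.

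**Figure D4:**
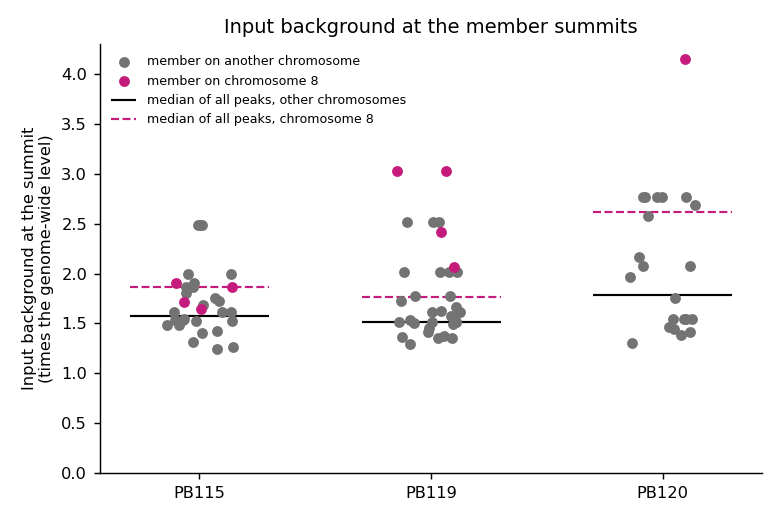
Input background at the summit (y axis, times the genome-wide level) for each member with a summit within 1000 bp of an end, by line. Pink points are members on chromosome 8, grey points are members on other chromosomes, and lines are medians over all peaks of the list on chromosome 8 (dashed) and elsewhere (solid); Farsa in PB120, at 4.16, is the highest point.

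The other genes of tRNA charging were bound mainly in PB115 and PB119. Of 11 such genes, 8, 11 and 3 had a summit near an end, beside 23.6%, 35.3% and 16.4% of all protein-coding genes. Their median folds were 9.67, 11.2 and 9.39, near the 10.4, 11.6 and 9.23 of all bound protein-coding genes. Gatc and Gatb, subunits of the amidotransferase that makes mitochondrial glutaminyl-tRNA from the product of Ears2, were bound in all 3 lines, with 10.1, 17.0 and 12.6, and 10.4, 10.8 and 7.05. Mtfmt, which formylates the mitochondrial initiator methionyl-tRNA, had 9.89, 12.6 and 9.39. Pstk, Aarsd1, Dtd1 and Ptrh2 were bound in PB115 and PB119, with folds between 6.59 and 12.8. Qrsl1, the third amidotransferase subunit, and Sepsecs, which makes selenocysteinyl-tRNA, had a peak in PB119 only, with folds of 8.29 and 11.7. None of the 11 was in the top 10% of peaks in any line, where the synthetase and scaffold genes had 9, 12 and 3. Of all bound protein-coding genes, 673 of 5172, 1208 of 7723 and 415 of 3598 were in it. With 8, 11 and 3 genes bound, finding none there does not set the 11 apart from all bound genes. The difference between the 11 genes and the synthetase and scaffold genes was not tested.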

How the data were processed

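Each ChIP library had 1 peak list. Bowtie, SAMtools and MACS2 with build mm10 are named in the submitters' processing notes, without versions. Per the file headers, MACS 2.1.0.20140616 called peaks against the input of the same line at p of 1e-10 with at most 1 tag per position. Per the labels' protocols, a ChIP used 20000000 cells, fixed for 10 minutes with formaldehyde at 1%.

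The deposited pileup is a signal, fragment coverage at the summit scaled to input depth. Divided by that scale it gave whole fragments, within 0.02, at 100% of peaks. The deposited fold is a ratio of pileup to input background, 1 added to both, from which the background was recovered. The deposited −log10 p-value and −log10 q-value served only for the stricter cutoff (p) or not at all (q).

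Genes came from RefSeq GRCm38.p6, the assembly of mm10. This gene table has no strand, so a gene is called near an end when a summit lies within 1000 bp of either end, and it gets its peak of highest fold. Starts came from the RefSeq promoter windows. Members and lists were chosen with earlier results of these data known. All members are named. The 5 cytosolic and 5 mitochondrial genes of highest mean percentile of fold, among those bound in all lines, have full values, and Wars2, Eprs, Gars, Mars2 and Farsa were described further after their values were seen. No test was run, since each line had 1 library. The code of the gene calls was checked on simulated summits at 400 genes, some of them placed beyond the window. Of the summits placed to be called, 100% were recovered. They were placed by the same 1000 bp rule, so the check covers the code alone. The tools were Python 3.11.15, pandas 2.3.3, numpy 2.4.6 and SciPy 1.17.1. Some genes and sequences of the lists are not reported here.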

Additional observations from a re-analysis of the deposited data

How the results depend on the processing

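No paired analysis was possible because each line had 1 ChIP library. Of 217 values recomputed under other settings, 193 stayed within 1.5 times the main value and 24 moved further. None could reverse, since all were counts or median folds, which have no direction. Windows of 500 and 5000 bp, gene bodies, listed starts, equal list lengths of 5168 peaks and leaving out Gars and Kars moved none of the counts or medians that far. Leaving out members whose summit was near another coding gene lowered the bound members to 16, 18 and 12 (PB115, PB119, PB120) and to 11 in all lines. The cytosolic counts became 10 in PB115, 11 in PB119 and 7 in all lines, and the mitochondrial counts 5, 6 and 3, with 3 in all lines. The scaffold count became 1 in each line and in all lines. At p of 1e-20, mitochondrial genes bound numbered 4 in PB120 and 4 in all lines, and the scaffold count was 1 in PB120 and in all lines. A minimum of 30 fragments, chosen after seeing the data, also left 1 scaffold gene in PB120 and in all lines. Without PB120, 17 cytosolic genes were bound in the remaining lines. A reciprocal overlap of 50% left 11 members with overlapping peaks, and E-box variants raised the promoters with a match to 17. By construction each of these settings drops genes or loosens the match. Depth limits the lists at 19 to 24 fragments.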
